A study of Mus musculus with 12 samples.

Results

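Hair keratins and keratin-associated proteins (KRTAPs) are the building material of the hair shaft and of the sheath that surrounds it, and their transcripts were followed here in periocular skin of ft/ft and ft/ftMyD88-/- mice. The genes were chosen by name: 20 keratins of the hair follicle, and every gene whose symbol begins with Krtap and a number, provided that it had at least 10 counts summed over the 8 libraries. Of the 21247 genes in the count table, 74 met this rule, and no gene that matched by name fell below the minimum. They comprised 7 keratins of the inner root sheath, 13 keratins of the matrix, cortex and cuticle of the shaft, and 54 KRTAPs.

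The study asked what loss of MyD88, the adaptor protein of toll-like and IL-1 family receptors, does to skin that lacks filaggrin. Each group held 4 libraries of bulk RNA from whole periocular biopsies, 1 mouse per library, taken at 6 weeks of age and described as female. ft/ft mice are homozygous for an inactivating point mutation of the filaggrin gene *Flg* that arose naturally, from which the *ma* mutation is stated to have been removed. ft/ftMyD88-/- mice carry the same alleles and are also MyD88-/-, with no tissue-specific driver described, so both groups share the *Flg* mutation, the BALB/c background and specific pathogen-free housing. The cross was made in house, and no source used here says whether the groups were littermates. 4 wildtype samples were not analysed here, so no level below is set against normal skin.

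In a growing hair follicle, matrix cells at the base divide and feed concentric layers. The inner root sheath, which moulds the shaft, makes its own keratins early, the matrix and cortex add the hair keratins above it, and KRTAPs come last, embedding the keratin filaments through disulfide bonds. KRTAPs are grouped by composition into high sulfur, ultra-high sulfur and high glycine-tyrosine proteins. Keratins pair as type I with type II, and these transcripts are known to be abundant in follicles in their growth phase and scarce in resting ones.

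The ft/ft libraries held 18941705 to 29255129 counts each and the ft/ftMyD88-/- libraries 15802957 to 27037997. Levels are given as CPM, counts scaled to a common library size by edgeR's TMM method. A library with 0 counts of a gene could still hold 3 counts' worth, a floor that covers counting error only. By library totals before TMM scaling, this floor was 0.103 to 0.19 CPM. Libraries labelled ft/ftMyD88-/- did not have less *Myd88*, at 41.2 ± 7.29 against 30.7 ± 4.74 CPM (SD, n = 4 each; log2 fold change 0.42, edgeR adjusted p = 0.0484), so it does not check the labels. Counts per gene cannot show a deleted exon, and every direction here rests on the labels. *Xist* had 1 count over the 4 ft/ft libraries against 49.4 ± 13.3 CPM in ft/ftMyD88-/-, and the 4 Y-linked genes measured were lower in ft/ftMyD88-/- (edgeR adjusted p under 0.05 for each). Genotype and sex therefore cannot be told apart in any comparison below. Of the other markers of skin, *Krt14* and *Krt10* of the epidermis and *Scd1* of sebaceous glands were abundant in all 8 libraries, as were muscle genes.

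The summed level of the 74 genes was 2587, 2176, 2511 and 3314 CPM in ft/ft replicates 1 to 4. It was 23112, 2573, 4059.8 and 11869 CPM in ft/ftMyD88-/- replicates 1 to 4. ft/ftMyD88-/- replicate 1 thus stood at 8.73 times, replicate 4 at 4.48 times and replicate 3 at 1.53 times the ft/ft mean, and replicate 2 lay within the ft/ft range. As a share of all counts, the genes took 0.238, 0.204, 0.238 and 0.316% in ft/ft and 2.44, 0.276, 0.441 and 1.23% in ft/ftMyD88-/-. In bulk RNA, more cells of a type and more RNA per cell cannot be told apart, so these sums do not say whether follicles differed in number or in activity.

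**Figure D1:**
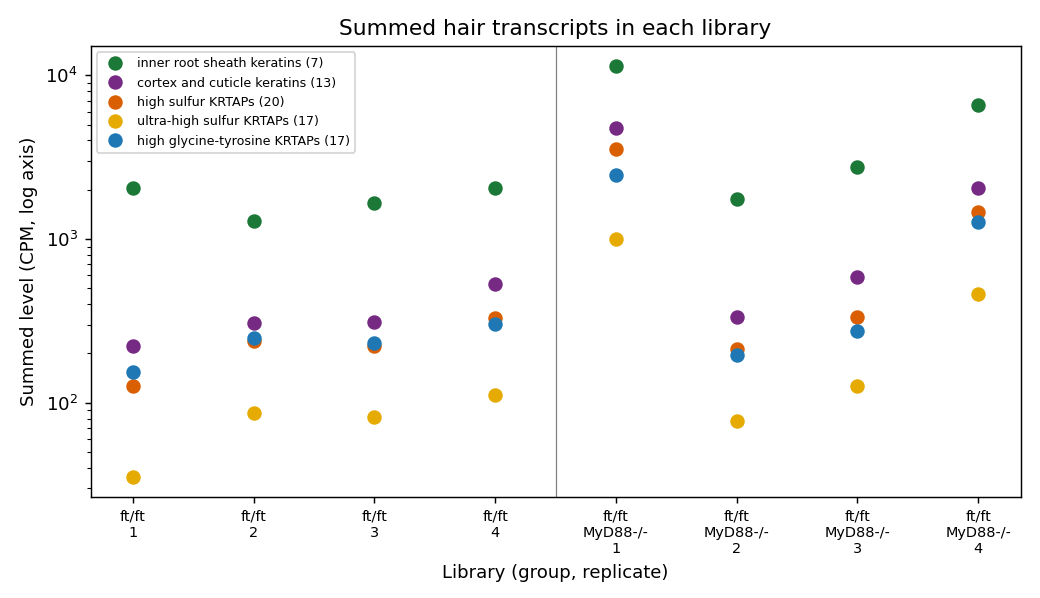
Summed CPM (log axis) of each class of hair transcripts in each of the 8 libraries, 1 point per class and library, with ft/ft left of the line. In ft/ftMyD88-/- replicates 1 and 4 all 5 classes lay above every ft/ft library, while replicate 2 lay among the ft/ft points.

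Nearly every gene repeated the top of this order of libraries, but not the rest. The third place was held by ft/ftMyD88-/- replicate 3 for 38 genes and by ft/ft replicate 4 for 29. ft/ftMyD88-/- replicate 1 was the highest of the 8 libraries for all 74 genes, and replicate 4 was second for 73 of them, the exception being *Krtap6-3*. Replicate 3 lay above all 4 ft/ft libraries for 41 genes, and replicate 2 for 7. Over all 20454 genes tested, replicate 1 was the highest library for 14.4% and replicate 4 the second highest for 13.8%, and replicates 3 and 2 lay above every ft/ft library for 28.7% and 27.7%. The median gene stood 12.6-, 0.943-, 1.61- and 5.87-fold its ft/ft mean in ft/ftMyD88-/- replicates 1 to 4. The ft/ft libraries were closer together, at 0.577-, 1.02-, 0.992- and 1.44-fold. Hair genes were thus far more variable within each group than most genes. Their median coefficient of variation was 40.7% in ft/ft and 103% in ft/ftMyD88-/-, against 11.6% and 12.1% for the 14673 tested genes with a mean of at least 1 CPM.

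**Figure D2:**
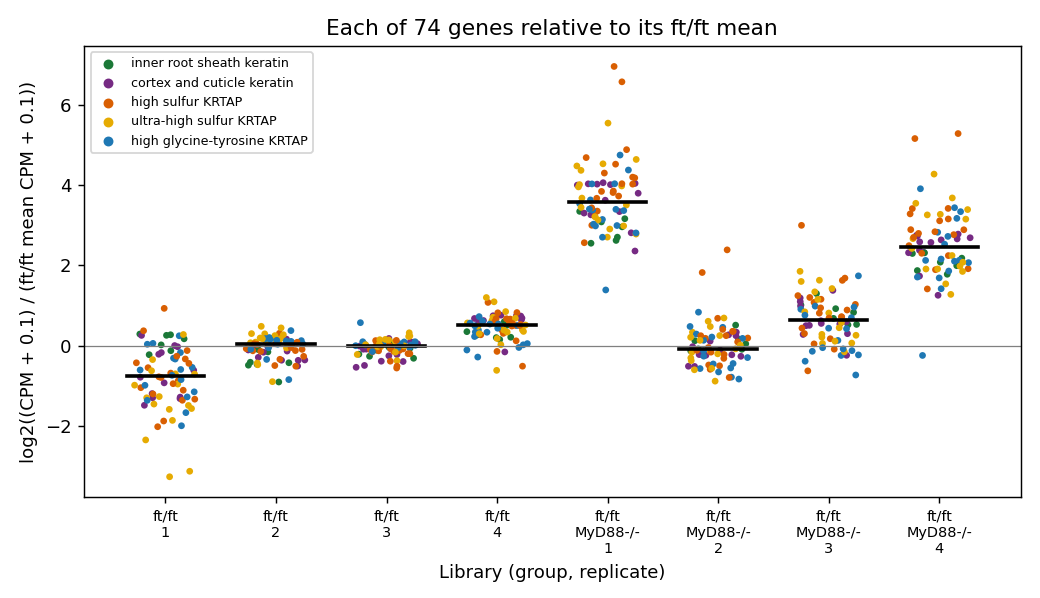
Level of each of the 74 genes in each library relative to its own ft/ft mean, as a log2 ratio with the pseudocount shown on the axis. Each point is a gene coloured by class, and bars mark the median of a library, which is highest in ft/ftMyD88-/- replicate 1 and next highest in replicate 4.

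All 74 genes had a fitted log2 fold change above 0 (ft/ftMyD88-/- minus ft/ft), where 51.0% of all tested genes did, and their median was 2.38 against 0.01 for all genes. 73 genes had a log2 fold change of at least 1 and 53 of at least 2. With edgeR's quasi-likelihood test and Benjamini-Hochberg adjustment over all tested genes, however, only *Krtap31-2* and *Krtap5-2* passed an adjusted p of 0.05. That is 2.70% of the genes against 10.9% of all tested genes called higher, and 0 were called lower, where 12.3% of all genes were. Both called genes had fewer than 10 counts summed over ft/ft, as had 3 other genes, so these 5 met the minimum of 10 counts only through ft/ftMyD88-/- and their calls are no support for a difference. Of the other 69 genes edgeR called 0, DESeq2 called 52, 46 had an unadjusted p under 0.05 by edgeR, and the median log2 fold change was 2.31. Over all 74, at an unadjusted p under 0.05, 51 genes (68.9%) were higher against 18.4% of all genes and 0 were lower. Beyond the 2 called genes, 52 of the 74 had an edgeR adjusted p between 0.05 and 0.15. These overlap with the 51 genes, and the share of all tested genes in that interval was not computed.

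The count of calls depended on how the spread between libraries was estimated. DESeq2 called 57 of the 74 genes higher (77.0%, against 14.6% of all genes) and edgeR without robust dispersions called 53 (71.6%, against 11.5%). Without ft/ftMyD88-/- replicate 2, the library closest to ft/ft, edgeR called 32 genes, where 9.63% of all genes were called higher. Without ft/ftMyD88-/- replicate 1 it called 2 (against 10.1% of all genes), without replicate 3 it called 6 (11.3%) and without replicate 4 it called 1 (7.93%). Without ft/ft replicates 1 to 4 in turn it called 0 each time, against 9.27, 9.93, 7.93 and 7.24% of all genes. Among the 69 genes with at least 10 counts in ft/ft, the fits without robust dispersions and without ft/ftMyD88-/- replicate 2 called 48 and 27, and that without ft/ftMyD88-/- replicate 3 called 1. The median log2 fold change was 1.50 without ft/ftMyD88-/- replicate 1 and 2.76 without replicate 2.

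**Figure D3:**
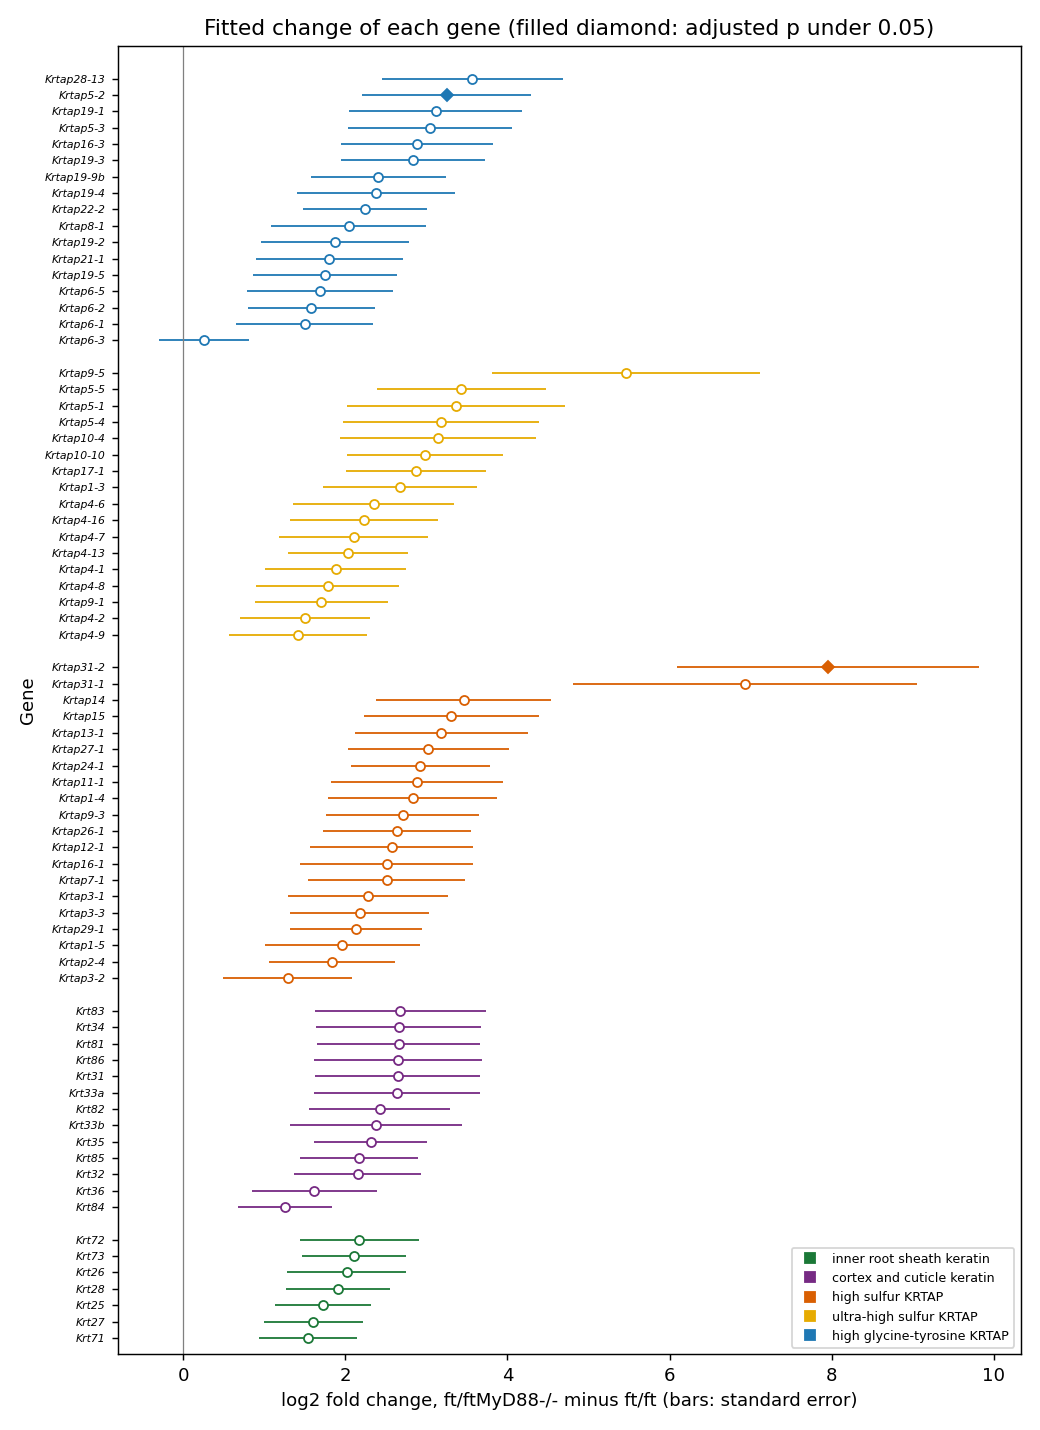
Fitted log2 fold change of each of the 74 genes (ft/ftMyD88-/- minus ft/ft), grouped by class, with bars of 1 standard error and filled diamonds for an edgeR adjusted p under 0.05. All points lie right of 0, from 0.26 for Krtap6-3 to 7.96 for Krtap31-2, and 2 are filled diamonds.

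Keratins of the inner root sheath made up 59.6 to 79.2% of the summed CPM of the 74 genes in ft/ft and 49.0 to 68.1% in ft/ftMyD88-/-, lowest in ft/ftMyD88-/- replicate 1. Their sum was 2049.6, 1297, 1664 and 2039.9 CPM in ft/ft and 11319, 1753, 2743 and 6605 CPM in ft/ftMyD88-/-. *Krt71*, a type II keratin found throughout the inner root sheath (GRCm38.p6 chromosome 15, 101733949 to 101743097), had 1016, 632, 814 and 944 CPM in ft/ft and 4983, 777, 1218 and 2916 CPM in ft/ftMyD88-/-. ft/ftMyD88-/- replicates 1, 4 and 3 were the 3 highest libraries and replicate 2 lay inside the ft/ft range, and the log2 fold change was 1.54 ± 0.60 SE (standard error, adjusted p = 0.116 by edgeR). Its type I partner *Krt25* (chromosome 11, 99315516 to 99322951) had 487, 284, 368 and 457 CPM in ft/ft and 2594, 445, 638 and 1585 CPM in ft/ftMyD88-/-. *Krt27*, another type I sheath keratin, had 317, 211, 275 and 326 CPM in ft/ft and 1734, 264, 406 and 1031 CPM in ft/ftMyD88-/-. In each of these genes ft/ftMyD88-/- replicates 1, 3 and 4 exceeded every ft/ft library and replicate 2 did not.

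The other sheath keratins behaved alike at lower levels. *Krt28* had means of 61.9 ± 17.2 CPM in ft/ft and 234 ± 184 CPM in ft/ftMyD88-/- (SD, n = 4 each). *Krt26*, *Krt72* and *Krt73* are keratins of the sheath cuticle, the layer that faces the shaft. *Krt73* had 70.6, 41.1, 80.4 and 117 CPM in ft/ft and 653, 109.8, 189.5 and 379 CPM in ft/ftMyD88-/-, the lowest adjusted p of the sheath (0.0596 by edgeR, log2 fold change 2.11 ± 0.64 SE). *Krt72* had 51.7, 47.6, 44.0 and 61.2 CPM in ft/ft and 519.7, 52.7, 96.7 and 254 CPM in ft/ftMyD88-/-. *Krt26* had 33.6, 35.3, 32.7 and 56.1 CPM in ft/ft and 353, 37.2, 70.0 and 179 CPM in ft/ftMyD88-/-. Replicate 3 of ft/ftMyD88-/- was above all ft/ft libraries for 7 of 7 sheath keratins and replicate 2 for 0. The 7 log2 fold changes ran from 1.54 to 2.17 with a median of 1.92, and none of the 7 genes passed the adjusted threshold. All 7 had an unadjusted p under 0.05 by edgeR, against 18.4% of all tested genes higher at that level. The 7 moved together over libraries, so they are not separate results.

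Keratins of the matrix, cortex and cuticle of the shaft were lower in level and spread more widely. They summed to 221, 309, 309 and 532 CPM in ft/ft and 4794, 335, 583 and 2062 CPM in ft/ftMyD88-/-. *Krt35* and *Krt85* are the first hair keratins that matrix cells make. *Krt35* (chromosome 11, 100092192 to 100096224) had 72.3, 42.6, 43.0 and 85.0 CPM in ft/ft and 615, 76.5, 158 and 361 CPM in ft/ftMyD88-/-, with 3 ft/ftMyD88-/- libraries above every ft/ft library (log2 fold change 2.31 ± 0.70 SE, adjusted p = 0.0593 by edgeR). *Krt85* had 20.4, 16.1, 14.3 and 32.6 CPM in ft/ft and 206, 25.1, 41.2 and 104 CPM in ft/ftMyD88-/-, again with 3 ft/ftMyD88-/- libraries above every ft/ft library. *Krt35* was not called by edgeR, and its adjusted p ran from 0.0016 to 0.136 over the alternatives.

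*Krt31*, *Krt33a*, *Krt33b* and *Krt34* are type I keratins of the cortex, and *Krt81*, *Krt83* and *Krt86* their type II partners. *Krt31* (chromosome 11, 100046646 to 100050551) had 15.1, 21.3, 24.5 and 43.7 CPM in ft/ft and 423, 22.5, 38.4 and 174 CPM in ft/ftMyD88-/-. *Krt81* had 15.8, 40.4, 36.4 and 62.2 CPM in ft/ft and 630.2, 41.8, 58.3 and 249.6 CPM in ft/ftMyD88-/-. *Krt86* had 12.8, 35.4, 31.3 and 47.2 CPM in ft/ft and 522, 29.3, 44.6 and 200.2 CPM in ft/ftMyD88-/-. In these 3 genes ft/ft replicate 4 exceeded ft/ftMyD88-/- replicate 3, so that 2 of 4 ft/ftMyD88-/- libraries lay above all ft/ft libraries, and ft/ft replicate 1 was the lowest of all 8. Means of *Krt33a*, *Krt33b*, *Krt34* and *Krt83* lay between 25.6 and 41.2 CPM in ft/ft and between 133 and 264 CPM in ft/ftMyD88-/-. The largest log2 fold change among keratins was that of *Krt83*, 2.68 ± 1.05 SE (adjusted p = 0.121 by edgeR). Between 43.5% and 21.9% of the 50-base stretches of *Krt81*, *Krt86*, *Krt34*, *Krt31*, *Krt33b*, *Krt83* and *Krt33a* also occurred in transcripts of other genes, so how reads were split among these near-copies is uncertain.

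*Krt32* and *Krt82* are keratins of the shaft cuticle. *Krt32* had 7.33, 6.40, 6.30 and 13.2 CPM in ft/ft and 80.1, 7.06, 17.8 and 43.5 CPM in ft/ftMyD88-/-. *Krt82* had 6.56, 9.35, 7.64 and 16.9 CPM in ft/ft and 125, 8.64, 23.1 and 61.0 CPM in ft/ftMyD88-/-, with log2 fold changes of 2.15 and 2.42 for the pair. Both had 3 of 4 ft/ftMyD88-/- libraries above ft/ft. The smallest keratin log2 fold change was that of *Krt84*, which is best known from the filiform papillae of the tongue. *Krt84* had 8.23, 8.04, 9.32 and 7.36 CPM in ft/ft and 42.6, 9.77, 6.94 and 19.8 CPM in ft/ftMyD88-/-, where replicate 3 was the lowest of all 8 libraries (log2 fold change 1.26 ± 0.58 SE, adjusted p = 0.17 by edgeR). *Krt36* had 4.59, 4.15, 4.46 and 8.21 CPM in ft/ft and 38.1, 3.71, 6.50 and 18.0 CPM in ft/ftMyD88-/- (log2 fold change 1.62). All 20 keratins had a log2 fold change of at least 1.26. Of the 20, 17 had an unadjusted p under 0.05 by edgeR, against 18.4% of all tested genes higher at that level. edgeR's adjusted threshold was passed by 0, where 10.9% of all genes were called higher, and DESeq2 called 18, against 14.6% of all genes. The keratins moved together over libraries, so these counts are not separate results.

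**Figure D4:**
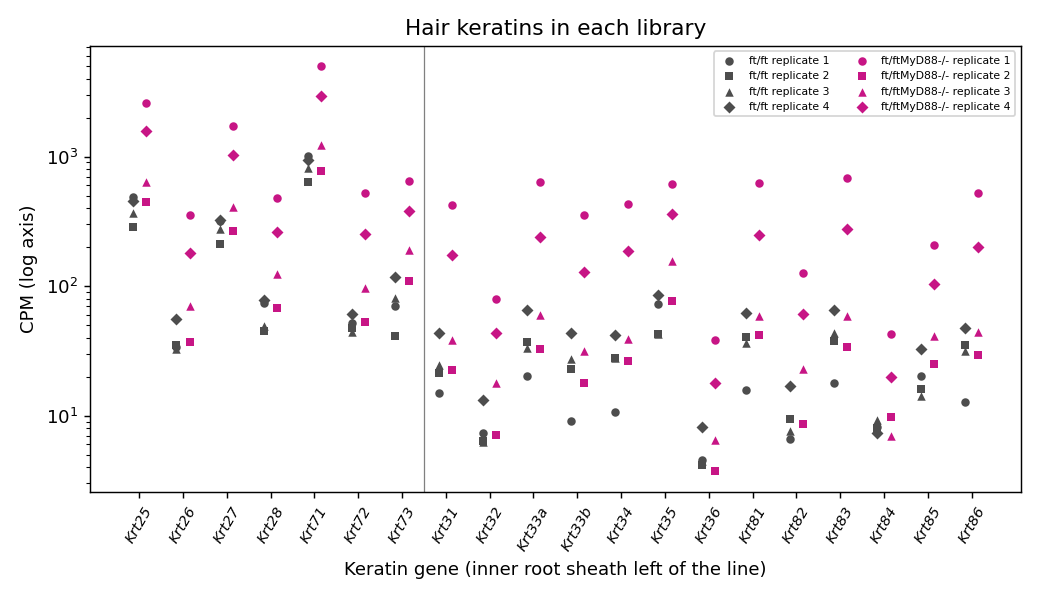
CPM (log axis) of the 20 hair keratins in each library, grey for ft/ft and magenta for ft/ftMyD88-/-, with the marker shape giving the replicate number and the vertical line separating inner root sheath from shaft keratins. The magenta circle (ft/ftMyD88-/- replicate 1) is the top point of every gene and the magenta diamond (replicate 4) the second.

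The sheath and the shaft did not take the same share in every library. Sheath keratins were 9.27, 4.20, 5.38 and 3.84 times the shaft keratins in ft/ft and 2.36, 5.22, 4.71 and 3.20 times in ft/ftMyD88-/-, as a ratio of summed CPM. The lowest ratios belonged to ft/ftMyD88-/- replicates 1 and 4, the libraries with the most hair transcripts, and the highest to ft/ft replicate 1, the library with the least shaft keratin. The groups overlapped, since ft/ftMyD88-/- replicates 2 and 3 lay within the ft/ft range. KRTAPs and shaft keratins kept a narrower ratio, 1.43, 1.85, 1.74 and 1.40 in ft/ft and 1.46, 1.45, 1.26 and 1.55 in ft/ftMyD88-/-.

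The 54 KRTAPs summed to 316, 570.5, 538 and 743 CPM in ft/ft and 6999, 485, 734 and 3202 CPM in ft/ftMyD88-/-. By the codon content of their transcripts, 17 were high glycine-tyrosine (at least 35% glycine and tyrosine codons, read first). Of the others, 17 were ultra-high sulfur (at least 30% cysteine codons). The remaining 20 were counted as high sulfur with no minimum of cysteine, so that class is a remainder. *Krtap5-2*, *Krtap5-3* and *Krtap28-13* met both limits and were counted as high glycine-tyrosine. High sulfur KRTAPs summed to 126, 237, 223 and 329 CPM in ft/ft and 3531, 213, 333 and 1471 CPM in ft/ftMyD88-/-. Ultra-high sulfur KRTAPs summed to 35.3, 86.4, 81.9 and 111 CPM in ft/ft and 1003, 77.7, 126 and 462 CPM in ft/ftMyD88-/-. High glycine-tyrosine KRTAPs summed to 155, 247, 233 and 302 CPM in ft/ft and 2465, 194, 275 and 1269 CPM in ft/ftMyD88-/-. The median log2 fold changes of the classes were 2.67, 2.35 and 2.24, for high sulfur, ultra-high sulfur and high glycine-tyrosine genes, each over a range wider than the differences between them. With cysteine read first the ultra-high sulfur median was 2.77 (20 genes) and the high glycine-tyrosine median 1.96 (14 genes). High glycine-tyrosine KRTAPs made up 49.0, 43.4, 43.4 and 40.6% of KRTAP CPM in ft/ft and 35.2, 40.1, 37.4 and 39.6% in ft/ftMyD88-/-, where each value lay below all ft/ft values, as it also did without the 3 genes that met both limits. Codon content placed *Krtap7-1* among the high sulfur genes at 29.9% glycine and tyrosine codons, although it is usually counted with the glycine-tyrosine proteins, and *Krtap15* among them with only 4.0% cysteine codons.

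Among high sulfur genes, *Krtap7-1* (GRCm38.p6 chromosome 16, 89507703 to 89508323) was the most abundant. It had 27.0, 53.3, 52.3 and 76.6 CPM in ft/ft and 736, 46.6, 70.7 and 339 CPM in ft/ftMyD88-/- (log2 fold change 2.51 ± 0.97 SE, adjusted p = 0.115 by edgeR). *Krtap15* (chromosome 16, 88829009 to 88829844) had 13.3, 24.5, 23.0 and 37.0 CPM in ft/ft and 631, 27.7, 51.6 and 261 CPM in ft/ftMyD88-/- (log2 fold change 3.31 ± 1.08 SE, adjusted p = 0.0752 by edgeR). The 2 genes differ in how replicate 3 of ft/ftMyD88-/- stood, below ft/ft replicate 4 for *Krtap7-1* and above it for *Krtap15*. *Krtap15* took 4.21, 4.30, 4.29 and 4.98% of KRTAP CPM in ft/ft and 9.01, 5.71, 7.03 and 8.16% in ft/ftMyD88-/-, 2 ranges that did not overlap. This was not particular to *Krtap15*, since the shares of *Krtap14* did not overlap either. Such shares were not counted over all KRTAPs. *Krtap1-5* had 13.8, 39.5, 29.8 and 44.9 CPM in ft/ft and 327, 22.5, 30.04 and 121 CPM in ft/ftMyD88-/-, and 2 of its ft/ftMyD88-/- libraries lay within the ft/ft range.

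Among ultra-high sulfur genes, *Krtap17-1* had 6.73, 7.89, 11.5 and 18.1 CPM in ft/ft and 172, 15.4, 29.7 and 106 CPM in ft/ftMyD88-/- (log2 fold change 2.87 ± 0.87 SE, adjusted p = 0.0598 by edgeR). ft/ftMyD88-/- replicate 3 exceeded all ft/ft libraries and replicate 2 did not. *Krtap4-1* had 7.33, 17.1, 14.3 and 18.8 CPM in ft/ft and 134, 11.6, 15.5 and 51.9 CPM in ft/ftMyD88-/-. *Krtap1-3* had 3.69, 7.09, 7.47 and 11.4 CPM in ft/ft and 121, 8.82, 13.1 and 47.5 CPM in ft/ftMyD88-/-. *Krtap4-1* belongs to the family with the most members here, 8 genes with log2 fold changes from 1.41 to 2.35. Of these 8, 2 had an unadjusted p under 0.05 by edgeR, against 18.4% of all tested genes higher at that level.

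Among high glycine-tyrosine genes, *Krtap8-1* had 25.5, 44.0, 38.5 and 63.1 CPM in ft/ft and 453, 27.1, 41.2 and 187 CPM in ft/ftMyD88-/-. *Krtap16-3* had 12.4, 19.5, 20.2 and 24.0 CPM in ft/ft and 313, 20.8, 35.7 and 193 CPM in ft/ftMyD88-/- (log2 fold change 2.88 ± 0.94 SE, adjusted p = 0.0737 by edgeR). *Krtap19-3* had 13.2, 15.8, 15.9 and 20.7 CPM in ft/ft and 269, 19.99, 32.5 and 148 CPM in ft/ftMyD88-/-. ft/ftMyD88-/- replicate 3 exceeded all ft/ft libraries for the last pair and not for *Krtap8-1*. The 6 genes of family 19 together varied little among ft/ft libraries, at 76.0, 81.4, 78.3 and 79.6 CPM, and stood at 952, 67.4, 100.2 and 521 CPM in ft/ftMyD88-/-.

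Family 6 of the high glycine-tyrosine class had the lowest median log2 fold change of the KRTAP families, 1.54. Its 4 genes summed to 25.9, 68.0, 63.9 and 87.9 CPM in ft/ft and 407, 47.8, 53.3 and 181 CPM in ft/ftMyD88-/-. The log2 fold changes of these genes ran from 0.26 to 1.69, their lowest edgeR adjusted p was 0.203, and they took 8.21, 11.9, 11.9 and 11.8% of KRTAP CPM in ft/ft and 5.81, 9.86, 7.26 and 5.64% in ft/ftMyD88-/-. *Krtap6-3* (chromosome 16, 89084024 to 89084534) had 3.60, 7.86, 7.75 and 9.82 CPM in ft/ft and 19.1, 5.29, 4.32 and 6.10 CPM in ft/ftMyD88-/-. It was the only one of the 74 genes with ft/ftMyD88-/- replicate 4 inside the ft/ft range (log2 fold change 0.26 ± 0.56 SE, adjusted p = 0.779 by edgeR). Without ft/ftMyD88-/- replicate 1 its log2 fold change turned to -0.48 (edgeR adjusted p = 0.286), so 1 library decided its direction.

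The libraries of the groups did not overlap for 6 KRTAPs, 8.11% of the 74 genes against 12.5% of all tested genes with every ft/ftMyD88-/- library above every ft/ft library. These 6 were singled out after their values were seen, and 5 of them had fewer than 10 counts in ft/ft. *Krtap31-2* (GRCm38.p6 chromosome 11, 99936291 to 99937225) was counted 1, 0, 0 and 0 times in ft/ft replicates 1 to 4 and 238, 13, 23 and 69 times in ft/ftMyD88-/-. Summed counts and library sizes gave a ratio of 339, with an exact 95% counting interval of 60.5 to 13446 that covers counting error only. It met the minimum of 10 counts only through ft/ftMyD88-/-, and its edgeR adjusted p was 0.0241, with adjusted p-values from 6.01e-06 to 0.161 over the alternatives. The adjusted p was above the threshold without any 1 of the 4 ft/ft libraries (adjusted p of 0.161, 0.0684, 0.0666 and 0.0753 without replicates 1 to 4) and with limma voom (0.0851).

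*Krtap31-1*, its neighbour (chromosome 11, 99907920 to 99908890), was counted 4, 0, 0 and 0 times in ft/ft replicates 1 to 4 and 402, 11, 10 and 82 times in ft/ftMyD88-/-, a ratio of 125 with a counting interval of 48.5 to 460.3 (edgeR adjusted p = 0.0615). Of the 50-base stretches of these neighbours, 41.5% and 39.5% also occur in transcripts of other genes, so their separate values are uncertain. *Krtap9-5*, in the same cluster, was counted 2, 2, 1 and 0 times in ft/ft replicates 1 to 4 and 161, 4, 11 and 47 times in ft/ftMyD88-/-, a ratio of 44.1 (18.6 to 137). These 3 genes had 4 to 23 counts in ft/ftMyD88-/- replicates 2 and 3 and 47 to 402 in replicates 1 and 4.

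*Krtap5-2* (chromosome 7, 142174532 to 142176005) was counted 0, 2, 1 and 2 times in ft/ft replicates 1 to 4 and 34, 3, 3 and 9 times in ft/ftMyD88-/-, a ratio of 9.70 (3.89 to 31.2). It too met the minimum of 10 counts only through ft/ftMyD88-/- (edgeR adjusted p = 0.0451, from 0.00654 to 0.158 over the alternatives). It was not called without any 1 of the 4 ft/ft libraries (adjusted p of 0.104, 0.0915, 0.0952 and 0.0937 without replicates 1 to 4), nor without ft/ftMyD88-/- replicate 1 (0.139) or 4 (0.0875). *Krtap5-3* was counted 0, 0, 3 and 4 times in ft/ft replicates 1 to 4 and 40, 6, 6 and 8 times in ft/ftMyD88-/-. *Krtap5-5*, the only one of the 6 with more than a few counts in every library, had 1.03, 3.46, 3.85 and 4.68 CPM in ft/ft and 83.3, 4.998, 10.0 and 42.8 CPM in ft/ftMyD88-/- (log2 fold change 3.43 ± 1.04 SE, adjusted p = 0.0608 by edgeR).

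Per kilobase of exon, the transcripts ordered as follows over the 8 libraries, if counts scale with exon length. Whether they do depends on the protocol, which was not settled. *Krt71* was highest at 389.6 CPM per kb in ft/ft and 1132 in ft/ftMyD88-/-, followed by *Krt25* at 201 and 661 and *Krt27* at 182 and 554. The highest KRTAP was *Krtap7-1* at 84.2 and 480.0 CPM per kb, and *Krtap8-1* followed at 74.6 and 308. Both stood above every shaft keratin with a known length, of which *Krt83* was highest over the 8 libraries at 22.3 and 143. *Krt35* was higher in ft/ft at 25.3 and lower in ft/ftMyD88-/- at 126, where *Krt83* led only in replicate 1 (373 against 256). Given the spread between libraries, neighbours in this order, such as *Krt25* and *Krt27*, were not separated.

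The genes lie in a few clusters of the genome (GRCm38.p6, RefSeq positions for 73 of 74). Chromosome 11 holds 11 type I keratins between 99315516 and 100109487, with 23 KRTAPs from 99550132 to 99993994 among them. Chromosome 15 holds 8 type II keratins between 101459061 and 101802360, and chromosome 16 holds 22 KRTAPs between 88610709 and 89571183. The median log2 fold changes of these 4 sets were 2.15, 2.18, 2.30 and 2.46. The smaller sets, 5 genes of family 5 on chromosome 7 (142174532 to 142304503) and 3 KRTAPs on chromosome 10 (77720586 to 77837251), had medians of 3.25 and 2.98. *Krtap28-13* on chromosome 1 had a log2 fold change of 3.57. A positive value was therefore seen in every cluster.

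Because the genes moved together over libraries, their promoters were compared. RefSeq promoter sequences (GRCm38.p6, 250 bases before to 50 after the annotated start) matched 63 of the 74 genes. The letters TATAAA, the core of the TATA box, or their reverse complement TTTATA were found in 52 of 63 (82.5%), against 13.6% of 32851 promoters of all genes. On the gene strand with the first base 40 to 20 bases before the start, where a TATA box normally sits, they were in 38 of 63 (60.3%), against 1.99% of all promoters. The letters CTTTGAA or TTCAAAG, the core that LEF and TCF factors recognise, were in 14 of 63 (22.2%), against 5.14%. The longer CTTTGAAGA or its complement, which contains CTTTGAA and is known from hair keratin promoters, was in 5 of 63 (7.94%), against 0.49%. Families of near-copies share promoter sequence, so these are not independent promoters, and a match is a description of letters and not a site.

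Promoters of 6 genes are shown 5′ to 3′ on the gene strand, ending at the base before the annotated start, with matches to the TATA box core, the LEF1-type core or their reverse complements in capitals. The first 3, a cortex keratin, a high glycine-tyrosine KRTAP and a high sulfur KRTAP, are shown over 250 bases because they hold both motifs.
Krt31 (chr11:100050552-100050801, minus strand): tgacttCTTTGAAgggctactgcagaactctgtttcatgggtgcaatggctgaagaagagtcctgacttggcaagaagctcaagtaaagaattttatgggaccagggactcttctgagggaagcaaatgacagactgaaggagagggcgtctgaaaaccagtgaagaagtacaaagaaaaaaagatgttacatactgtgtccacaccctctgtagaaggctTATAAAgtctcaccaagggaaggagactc
Krtap16-3 (chr16:88962874-88963123, minus strand): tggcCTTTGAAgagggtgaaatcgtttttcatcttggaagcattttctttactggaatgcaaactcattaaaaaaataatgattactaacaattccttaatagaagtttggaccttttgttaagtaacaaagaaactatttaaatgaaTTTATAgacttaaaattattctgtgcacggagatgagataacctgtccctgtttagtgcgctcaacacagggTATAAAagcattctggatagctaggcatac
Krtap11-1 (chr16:89571184-89571433, minus strand): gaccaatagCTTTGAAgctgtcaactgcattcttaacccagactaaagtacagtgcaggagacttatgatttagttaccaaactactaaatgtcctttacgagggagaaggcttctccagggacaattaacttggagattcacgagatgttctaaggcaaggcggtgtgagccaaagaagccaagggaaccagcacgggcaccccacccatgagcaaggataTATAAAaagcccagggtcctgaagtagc
The next 3 are shown over 80 bases: *Krt71*, the highest in level, *Krtap31-2*, the largest log2 fold change, and *Krtap6-3*, the smallest.
Krt71 (chr15:101743098-101743177, minus strand): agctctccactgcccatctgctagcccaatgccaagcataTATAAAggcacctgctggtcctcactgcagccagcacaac
Krtap31-2 (chr11:99936211-99936290, plus strand): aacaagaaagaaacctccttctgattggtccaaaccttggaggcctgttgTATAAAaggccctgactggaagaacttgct
Krtap6-3 (chr16:89083944-89084023, plus strand): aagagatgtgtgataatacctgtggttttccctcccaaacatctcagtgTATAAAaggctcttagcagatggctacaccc
All 6 hold TATAAA near the start, although their log2 fold changes ran from 0.26 to 7.96. Genes with TATAAA in either orientation had a median log2 fold change of 2.20 (52 genes) and those without 2.84 (11 genes). Genes with CTTTGAA or its complement had a median of 2.65 (14 genes) and those without 2.23 (49 genes), with overlapping ranges in both cases.

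**Figure D5:**
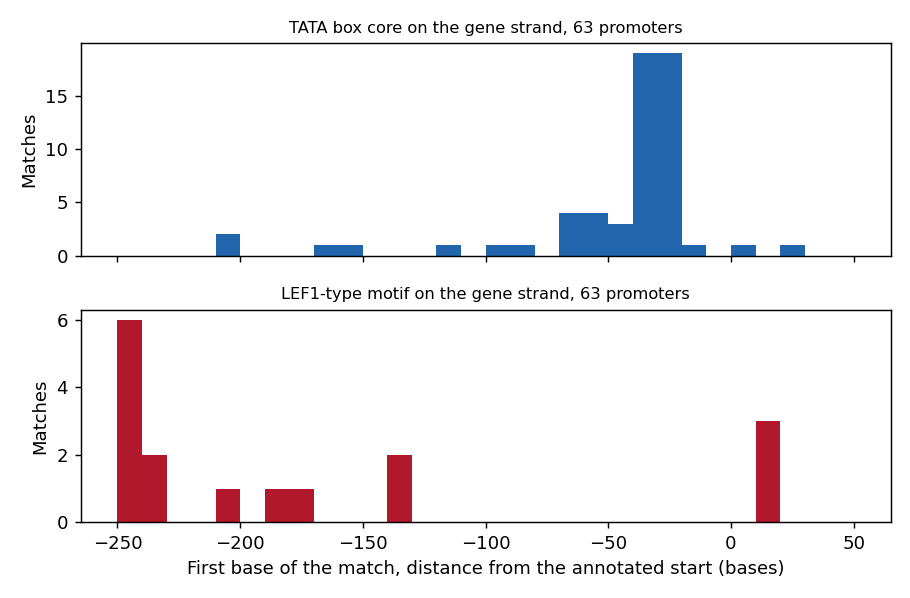
Positions of TATA box cores (top) and LEF1-type motifs (bottom) on the gene strand in 63 promoters, as the number of matches by distance of the first base from the annotated start in bases. The TATA matches gather 40 to 20 bases before the start, where 38 of 63 promoters hold one.

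Other genes of the follicle were read from fixed lists. Of 13 further genes of shaft and sheath structure, 2 passed the test, both higher, where 10.9% of all tested genes were called higher. All 13 had a positive log2 fold change, against 51.0% of all genes. ft/ftMyD88-/- replicate 1 was highest for 13 of 13, against 14.4% of all genes. Their median was 2.05, and they summed to 1042, 1032, 1058 and 1173 CPM in ft/ft and 7798, 1197, 1710.1 and 3894 CPM in ft/ftMyD88-/-. Trichohyalin, *Tchh*, which hardens the inner root sheath, had 578, 604, 639 and 668 CPM in ft/ft and 5015, 650.3, 941 and 2151 CPM in ft/ftMyD88-/- (edgeR adjusted p = 0.0981). The 2 genes called, *Krt74* of the sheath and *Lrrc15*, were named after their values were seen, with log2 fold changes of 3.54 and 1.83 (edgeR adjusted p = 0.0145 and 0.0407). *Krt74* was counted only 2, 0, 0 and 3 times in ft/ft and 25, 2, 19 and 15 times in ft/ftMyD88-/-, so it too met the minimum only through ft/ftMyD88-/-. Its calls, in 8 of 8 fits that left out 1 library and not with limma voom (adjusted p = 0.0866), are therefore no support for a difference. *Lrrc15* was called in 3 of 8 such fits and not with the replicate block (adjusted p = 0.167). *Krt87*, a hair keratin outside the rule, had means of 33.4 and 191 CPM and a log2 fold change of 2.51 (edgeR adjusted p = 0.119).

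Of 20 regulators of the hair matrix, 5 were higher in ft/ftMyD88-/- and 1 was lower, with a median log2 fold change of 0.32. Of all tested genes 10.9% were called higher and 12.3% lower. Only 14 of the 20 had a positive log2 fold change, and the 3 most abundant, *Hr*, *Vdr* and *Sostdc1*, had 0.09, 0.38 and -0.23. The 5 called higher, named after their values were seen, were the transcription factor genes *Hoxc13*, *Msx1*, *Msx2*, *Lef1* and *Vdr*, and the 1 lower was *Foxq1*. *Lef1*, which mediates Wnt signals in the matrix, had 2.79, 2.36, 2.23 and 2.84 CPM in ft/ft and 17.9, 4.23, 7.08 and 10.9 CPM in ft/ftMyD88-/-, with no overlap (log2 fold change 1.96 ± 0.40 SE, adjusted p = 0.00884 by edgeR), and was called in 8 of 8 fits that left out 1 library. *Hoxc13*, known as a regulator of hair keratin genes, had 16.2, 13.0, 12.6 and 17.1 CPM in ft/ft and 84.7, 18.8, 30.1 and 47.7 CPM in ft/ftMyD88-/- (edgeR adjusted p = 0.0494). It was called in 2 of 8 such fits, its adjusted p reaching 0.116. Of 8 bulge genes 1 was higher and 3 were lower, and of 7 melanocyte genes 1 was higher and 0 lower.

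Markers of other tissue in the biopsy also differed between the groups. The counts of calls below stand beside 10.9% of all tested genes called higher and 12.3% called lower. Of 10 skeletal muscle genes 9 were lower in ft/ftMyD88-/-, with sums of 8865, 8831, 9688 and 11877 CPM in ft/ft and 3367, 5082, 6478 and 4663 CPM in ft/ftMyD88-/-. Of 10 sebocyte genes 7 were lower, with sums from 21125 to 23575 CPM over the ft/ft libraries against 12814 to 18685 in ft/ftMyD88-/-. The order of libraries in these lists was not that of the hair genes. ft/ftMyD88-/- replicates 1 and 4, highest and second in hair transcripts, were lowest and second lowest of all 8 libraries in muscle genes. In sebocyte genes replicate 4 was the lowest of all 8, and replicate 1 was the second highest within ft/ftMyD88-/-. All 8 proliferation genes and 3 of 5 leukocyte genes were higher in ft/ftMyD88-/-, while ft/ftMyD88-/- replicate 1 was highest for 1 of those 8 and 0 of those 5. Of 7 conjunctival and simple epithelial genes 2 were lower, of 6 genes of the interfollicular epidermis 3 were lower, and of 4 stress keratins 0 passed in either direction (median log2 fold change 0.40). How far the tissue sampled in each biopsy contributed to the hair transcripts was not tested.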

How the data were processed

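RNA of periocular skin was measured in 4 ft/ft and 4 ft/ftMyD88-/- libraries. The authors deposited whole-number counts per gene, with no normalization. The study's methods give polyA-selected 50-base single reads, aligned by HISAT and TopHat2 against GRCm38.p6, then counted by HTSeq, whereas the labels name total RNA here, a fixed-tissue protocol and Cell Ranger. Annotation release and strand setting are not given in the sources used here, and which protocol made these counts was not settled. 0 columns of samples were left unused, and 4 wildtype samples were not analysed here.

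Genes with at least 10 counts summed over 8 libraries (20454) entered edgeR 4.0.16 under R 4.3.3 (TMM, robust quasi-likelihood, two-sided, Benjamini-Hochberg, adjusted p under 0.05). Standard errors were the log2 fold change over the square root of F. The test was checked on simulated data in which all genes and both groups had the same dispersion. That check does not cover the hair genes, whose spread was wide and differed between the groups. DESeq2 1.42.0, limma voom 3.58.1, other normalizations and filters, a replicate block and each library left out were alternatives, and non-robust dispersions were added after seeing the data. The members, the gene lists and the tests were chosen with earlier results of these data known.

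The genes named are the 20 keratins, the 3 most abundant KRTAPs of each class, and any whose groups did not overlap or whose direction 1 library decided. In each other list at most the 3 most abundant were to be named, and others were added after seeing values. KRTAP classes were planned from protein sequence, which was not used here, and were taken from codons of GENCODE transcripts (GRCm38) instead. Symbols matched RefSeq for 16066 genes. Exon lengths and the share of 50-base stretches found in other genes' transcripts came from GENCODE. Replicates of a group differed by far more than counting noise (chi-square per degree of freedom from 12.8 to 56.2), so none was counted as a duplicate. Same-numbered libraries did not deviate together (correlations from -0.253 to 0.0662), so the numbers do not pair them.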

Additional observations from a re-analysis of the deposited data

Results flagged for a closer look

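In 84 groups of 4 libraries, the gap between an extreme library and its nearest neighbour was divided by the range of the group, and 6 groups exceeded Dixon's 95% critical value for 4 samples. Chance alone flags about 5% of such groups if their values are independent and normally distributed. These genes move together over libraries, so that share is no yardstick for the 6. Within ft/ft, replicate 4 stood apart as the highest library for *Krt26* (a gap of 0.890 of the range), *Krt32* (0.850) and *Krt36* (0.891). Replicate 1 stood apart in ft/ft for *Krtap31-1* (1.0) and *Krtap31-2* (1.0), where it held 4 counts and 1 count and the other libraries held 0. With 0 in the others any count gives 1.0, so both flags were fixed in advance. Within ft/ftMyD88-/-, replicate 1 stood apart as the highest library for *Krtap6-3* (0.880), the gene whose direction turned without it.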

How the results depend on the processing

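The median log2 fold change of the 74 genes stayed positive under every alternative, from 1.50 to 2.76. The number called higher, 2 with edgeR, was 13 with library size only (where 22.7% of all genes were called higher), 7 with edgeR's filterByExpr (14.2%), 57 with DESeq2 (14.6%), 5 with limma voom (10.7%), 53 with non-robust dispersions (11.5%, added after seeing the data) and 0 at an adjusted p under 0.01. Leaving out 1 library at a time gave 0 to 32. With the replicate number as a block it was 5 (9.26% of all genes), and the median log2 fold change was 1.73. The numbers do not pair the libraries, and no library correlated best with its own number. None was called lower in any fit. Among the 69 genes with at least 10 counts in ft/ft, library size only called 8, filterByExpr 6 and limma voom 5. On the same 69 genes DESeq2 called 52, non-robust dispersions 48 and the replicate block 1, and leaving out 1 library gave 0 to 27. The other calls were of genes that met the minimum only through ft/ftMyD88-/- and are no support for a difference. Library size only moved the median log2 fold change of all genes by 0.18. With 1 library left out at a time *Krtap6-3* ranged from -0.48 (without ft/ftMyD88-/- replicate 1) to 0.50. Of the genes in the other lists, 20 were called higher, against 32 with library size only, 37 with DESeq2, 35 with non-robust dispersions, 10 at an adjusted p under 0.01, 9 with a minimum log2 fold change of 1 in either direction, and 14 to 34 with 1 library left out. In these lists 25 were called lower, against 16 with library size only, 15 at an adjusted p under 0.01 and 9 with the minimum change. With ultra-high sulfur set at 25% cysteine codons, the calls were 0 in the high sulfur and 1 in the ultra-high sulfur class. With cysteine read before glycine and tyrosine (added after seeing the data), they were 1 in the ultra-high sulfur and 0 in the high glycine-tyrosine class. For single named genes, 584 values kept direction and side, 98 passed the threshold only under the alternative, 12 no longer passed, 27 moved and 1 reversed.

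With 4 libraries a group and hair genes that spread widely, calls near the threshold depend on the estimate of spread. Fold changes of members with under 10 counts in ft/ft are imprecise.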
